A study of Mus musculus with 8 samples.

Results

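The genes of cholesterol synthesis and sterol regulation were followed in epithelial cells of the mouse distal colon. The members were 29 genes chosen by symbol from knowledge of the pathway, with earlier results of these data known. Each was found once among 53379 listed genes. They comprised 18 enzymes of the synthesis pathway in order, 5 genes of the machinery that regulates them and 4 genes of sterol transport. Acly and Fasn, which make acetyl-CoA and fatty acids, completed them. RNA was sequenced from epithelial cells shaken off opened colons of C57BL/6 mice. The mice carried floxed Rora alleles (labelled RORaf/f, here WT) or lacked Rora in the intestinal epithelium (labelled RORaΔIEC, here KO). Rora encodes a nuclear receptor that binds DNA at ROR elements. Mice of both genotypes either stayed untreated or drank water with 2% (w/v) of DSS (dextran sulfate sodium, which damages the epithelium and inflames the colon) over 5 days, followed by 3 days of plain water to recover. This gave 4 groups of 2 libraries each. The Cre driver, the sex and the ages of the mice are not given in the sources used here. No source used here says whether both libraries of a group came from different mice. The p-values therefore measure library-to-library spread, which may be technical only.

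Each library held between 15971642 and 20418466 expected counts, of which between 53790 and 72772 fell on the members. Rora itself had 12 and 6 counts in the untreated WT libraries, 4 and 3 in those of untreated KO, 16 and 14 in WT after DSS, and 8 and 5 in KO after DSS, so the deleted gene was near the detection limit in all libraries. Of 8 general epithelial markers (among them Epcam, Krt8 and Cdh1) none was at 0 in any group, and their summed level lay between 14160 and 17047 CPM (counts scaled to library size by TMM) in the 8 libraries. Summed levels of 7 T and NK cell markers were between 1.72 and 4.30 CPM and those of 6 B and plasma cell markers between 0.381 and 4.03 CPM. Mitochondrially encoded genes took 7.75% to 8.05% of counts in untreated WT, 7.23% to 7.28% in untreated KO, 7.45% to 7.5% in DSS-treated WT and 4.91% to 5.29% in DSS-treated KO. Replicates differed by more than counting error in every group, most in DSS-treated KO (chi-square per degree of freedom 5.09, against 1.3 to 2.21 in the other groups).

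Animal cells build cholesterol from acetyl-CoA through mevalonate, isoprenoid diphosphates, squalene and lanosterol. Transcription of these enzymes is driven by the SREBP proteins, made from Srebf1 and Srebf2. When membrane sterol is low, SCAP (from Scap) escorts SREBP from the endoplasmic reticulum to the Golgi, where it is cut and released to the nucleus. When sterol is plentiful, INSIG proteins hold the SCAP complex back, and oxysterols activate LXR receptors, which raise the exporters Abca1 and Abcg1. Colon epithelium renews quickly and so makes membrane all the time. RNA levels in bulk samples cannot tell fewer cells of a type from less RNA per cell.

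The promoters of 6 members are shown as a description of sequence. SREBP is known to act beside the factors that bind CCAAT and GC boxes, and its part in these results was not tested. RefSeq promoter sequences (GRCm38.p6, which is the mm10 build, 250 bases before to 50 after each annotated start) matched 24 of the 29 members, 15 of them synthesis enzymes. Shown are the 160 bases directly before the start, on the strand of the gene. Capitals mark TCACNCCAC (a sterol regulatory element, SRE), CCAAT and GGGCGG (a GC box) on either strand, so that ATTGG and CCGCCC are the same motifs read in reverse. Hmgcs1 lies at chr13:119690191-119690350 (plus strand), Mvk at chr5:114444109-114444268 (plus), Mvd at chr8:122443423-122443582 (minus), Ebp at chrX:8193513-8193672 (minus), Fasn at chr11:120824548-120824707 (minus) and Abca1 at chr4:53159896-53160055 (minus).
Hmgcs1: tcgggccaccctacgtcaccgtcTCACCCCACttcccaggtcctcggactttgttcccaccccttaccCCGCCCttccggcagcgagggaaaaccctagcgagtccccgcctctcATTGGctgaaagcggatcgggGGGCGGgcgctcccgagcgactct
Mvk: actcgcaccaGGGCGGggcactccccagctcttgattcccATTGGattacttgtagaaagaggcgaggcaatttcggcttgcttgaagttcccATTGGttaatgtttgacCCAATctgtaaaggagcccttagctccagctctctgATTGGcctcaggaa
Mvd: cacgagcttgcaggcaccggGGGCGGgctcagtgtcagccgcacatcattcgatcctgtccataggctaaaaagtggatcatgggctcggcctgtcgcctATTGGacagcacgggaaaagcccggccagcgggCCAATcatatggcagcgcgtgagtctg
Ebp: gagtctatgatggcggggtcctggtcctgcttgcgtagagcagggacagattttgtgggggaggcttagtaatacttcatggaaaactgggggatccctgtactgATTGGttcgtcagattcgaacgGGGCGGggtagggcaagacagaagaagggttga
Fasn: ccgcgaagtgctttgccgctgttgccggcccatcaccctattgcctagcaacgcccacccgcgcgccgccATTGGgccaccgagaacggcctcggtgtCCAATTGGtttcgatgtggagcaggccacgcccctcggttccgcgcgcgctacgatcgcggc
Abca1: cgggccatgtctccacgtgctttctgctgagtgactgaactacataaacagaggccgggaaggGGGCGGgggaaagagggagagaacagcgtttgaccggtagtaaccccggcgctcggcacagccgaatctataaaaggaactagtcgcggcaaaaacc

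Within its 160 bases Hmgcs1 held 1 SRE, 1 CCAAT and 2 GC boxes, Mvk held 4 CCAAT and 1 GC box, and Mvd held 2 CCAAT and 1 GC box. The exporter Abca1, which is no enzyme of the pathway, held 1 GC box and neither of the other motifs. Other members outside the enzymes did hold CCAAT in the full 300 bases, namely Acly, Fasn, Insig1, Insig2, Npc1l1, Srebf1 and Srebf2. The enzyme gene Acat2 and the regulator Scap held none there. Over the full 300 bases CCAAT occurred in 21 of 24 members (14 of 15 enzymes). This compared with 41.1% of 27025 genes with a listed promoter outside chromosome 18. Of these, 10707 were tested for expression, and 42.7% of the tested genes held it. GGGCGG occurred in 21 of 24 members (14 of 15 enzymes), against 38.2% and 66.1%. Both were present in 17 of 24 members and 13 of 15 enzymes, against 14.5% of all and 26% of tested genes. TCACNCCAC occurred in Hmgcs1 alone among the 24 members searched (1.44% of all and 1.37% of tested genes). Other spellings of the element were not searched. The E-box CACGTG occurred in 6 members (8.09% of all and 11.5% of tested genes). The nuclear receptor half-site AGGTCA occurred in 5 (18.1% and 15.2%). Its longer form TAGGTCA, the core of a ROR element, occurred in Dhcr7 alone among the members searched (2.97% and 2.30%). Each such match also counts as AGGTCA. A gene with several listed starts was counted once if any of them held the motif, and a match is a description of letters only.

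Levels of different genes are compared here in TPM (transcripts scaled to a fixed total per library), which is corrected for gene length. In untreated WT the highest member was Acly with 175 ± 10.7 TPM, and the highest synthesis enzymes were Hmgcs1 (111 ± 0.453), Msmo1 (92.0 ± 5.69), Fdps (85.7 ± 1.53) and Ebp (84.9 ± 8.41). The libraries of Ebp overlapped those of Msmo1 and of Fdps, while those of Hmgcs1 lay above all 3. Hsd17b7 was the lowest enzyme (7.97 ± 0.884 TPM). Srebf2 (62.1 ± 3.10 TPM) stood above Srebf1 (46.8 ± 3.22) and Insig1 (61.7 ± 1.24) above Insig2 (24.98 ± 0.721), with no overlap of the libraries in either pair. Abca1 and Abcg1 were low (0.895 ± 0.148 and 1.24 ± 0.127 TPM). In DSS-treated KO, Fdps (214 ± 8.16 TPM) stood level with Hmgcs1 (218 ± 4.28 TPM), their libraries overlapping. Npc1l1, the brush-border protein that takes up dietary cholesterol in the small intestine, had 1 and 1 counts in the untreated WT libraries, 7 and 10 in those of untreated KO, 6 and 6 in WT after DSS, and 2 and 6 in KO after DSS. It was the only member with too few counts for the test, so 28 members were tested.

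Summed over the 18 enzymes, the level was 1447 and 1431 CPM in the untreated WT libraries, 2053 and 2038 in those of untreated KO, 2212 and 2215 in WT after DSS, and 2391 and 2468 in KO after DSS. No library of a group overlapped another group. Against the mean of untreated WT, untreated KO stood 42.2% higher, DSS-treated WT 53.9% higher and DSS-treated KO 68.9% higher. These sums weigh abundant and long transcripts most, and they are given as a description with no test. The median enzyme in each library, relative to its untreated WT mean, was 0.51 and 0.43 higher on the log2 scale in those of untreated KO, 0.56 and 0.54 in WT after DSS, and 0.67 and 0.76 in KO after DSS.

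**Figure D1:**
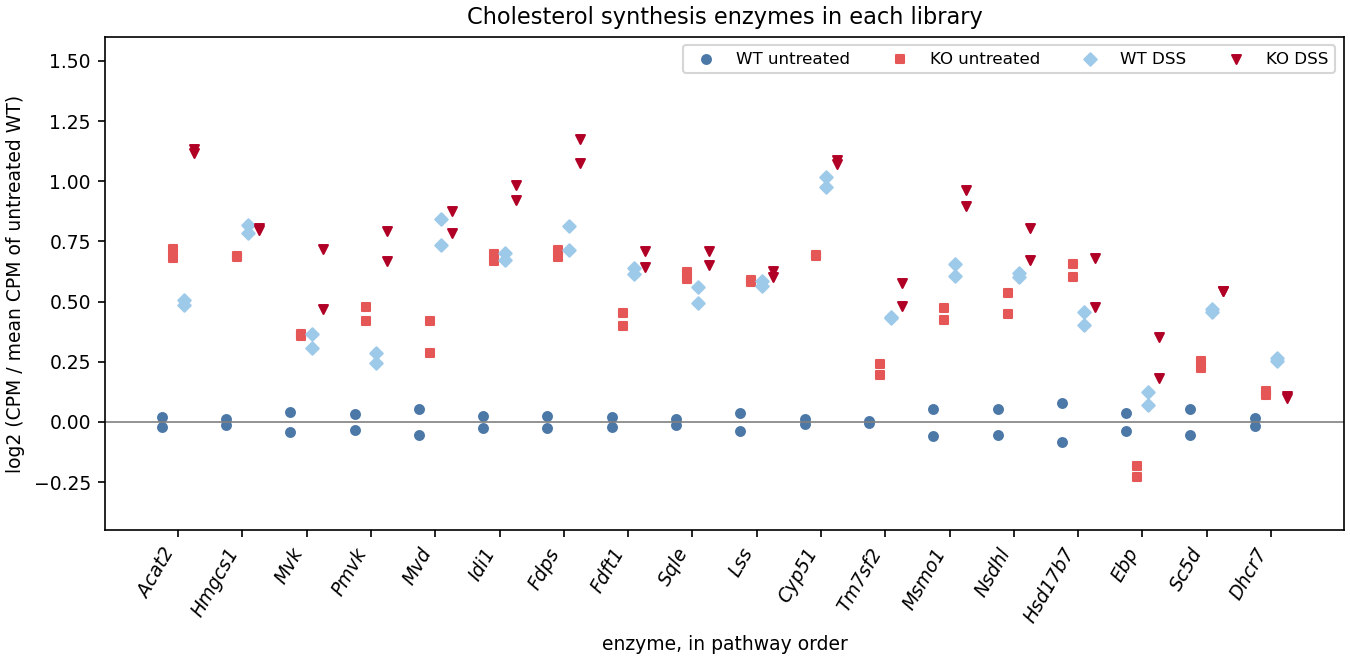
Level of each of the 18 synthesis enzymes in each of the 8 libraries, as log2 of CPM over the mean CPM of untreated WT (y axis), with the enzymes in pathway order (x axis); each symbol is 1 library. Ebp in untreated KO lies below the untreated WT libraries, and Cyp51, Acat2 and Fdps reach about 1 or above in DSS-treated KO.

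The first comparison set KO beside WT without injury. Of the 18 enzymes 15 were higher in KO and 1, Ebp, was lower. Over the 28 tested members 19 were higher and 1 was lower, against 9.19% of all 14991 tested genes called higher and 6.22% called lower. As the members were chosen with earlier results of these data known, such counts and shares are a description only. The median log2 fold change was 0.47 for the enzymes, 0.36 for the members and 0.0070 for all genes tested. With DSS, WT had 17 of 18 enzymes higher than untreated WT and 0 lower (0 lower also at an unadjusted p under 0.05 and with DESeq2). Over the members this was 24 higher and 1 lower of 28, against 18.9% and 18.3% of all genes. With effective lengths as offsets the 24 became 19. The median was 0.55 for the enzymes and 0.43 for the members, against -0.0069 for all genes. The comparison of KO with and without DSS gave 14 enzymes higher and 0 lower (0 lower also at an unadjusted p under 0.05 and with DESeq2), and 16 members higher and 2 lower, against 21.7% and 19.8% of all genes. Its enzyme median was 0.28. The genotypes under DSS differed in 8 enzymes that were higher in KO and 1, Dhcr7, that was lower. That made 9 members higher and 3 lower, against 21.3% and 17.7% of all genes, so the share of higher members (9 of 28) was closer to the background than in the other comparisons. Without DSS-treated WT replicate 2 the 9 became 6 and the 3 became 1. The comparisons of KO with WT and of DSS with untreated share their control libraries, and their values are set side by side only.

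The DSS change in KO minus that in WT, tested as an interaction, passed the test as negative for 11 enzymes and as positive for 1, Ebp. Over the members 15 passed as negative and 1 as positive of 28, against 10.6% and 10.8% of all genes. The median interaction was -0.32 for the enzymes and -0.24 for the members, and 0.0066 for all genes. The same number is the KO minus WT difference with DSS less that without DSS. With the effective lengths of the files as offsets the 15 became 10, and the calls of Mvd, Lss, Nsdhl, Ebp, Srebf2 and Fasn were lost.

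**Figure D2:**
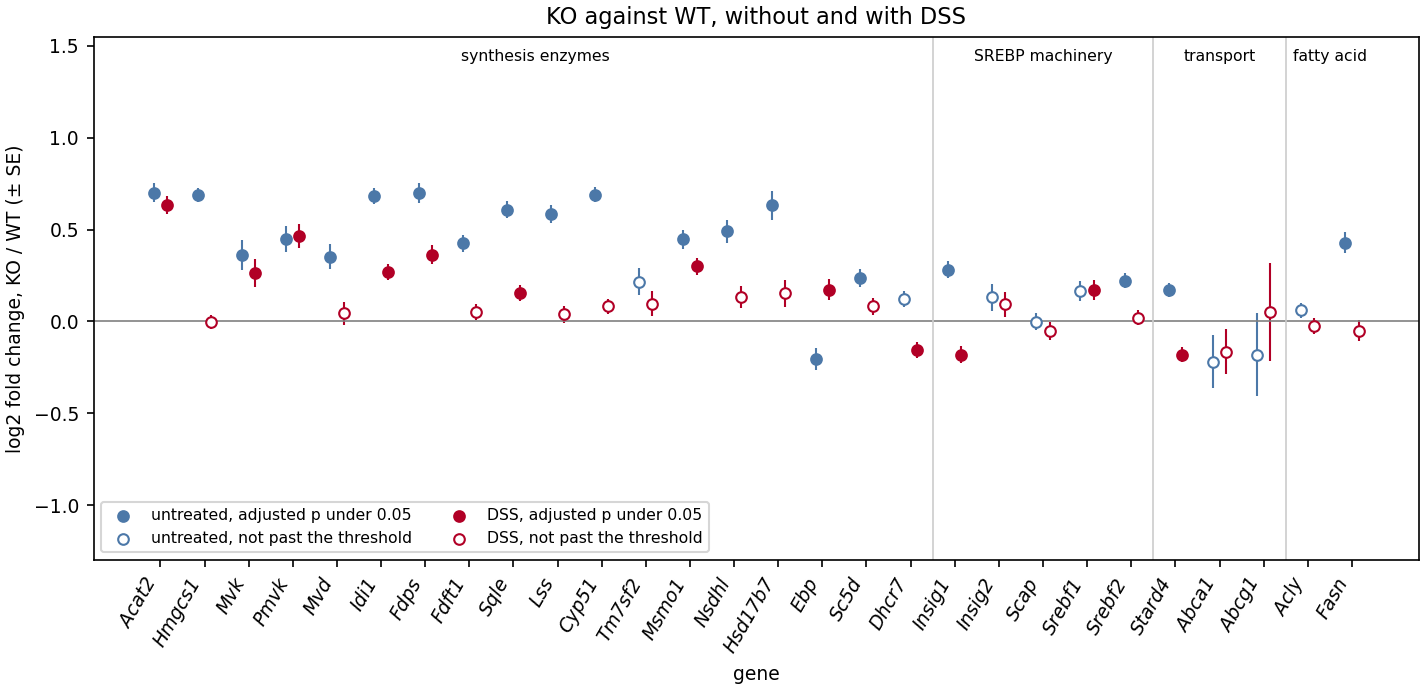
Log2 fold change of KO over WT (y axis, ± SE) for the 28 tested members (x axis, grouped by role), untreated in blue and with DSS in red; filled points passed an adjusted p of 0.05. For most enzymes the blue point lies above the red one, whereas Acat2, Mvk and Pmvk have both points at similar heights and Ebp has them in reverse order.

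The first steps join acetyl-CoA units and build mevalonate. Acat2, the thiolase that condenses acetyl-CoA (ENSMUSG00000023832.13, chromosome 17, 12942890 to 12960747), stood at 34.2 and 35.2 CPM in the untreated WT libraries, 55.7 and 57.2 in those of untreated KO, 48.6 and 49.3 in WT after DSS, and 75.4 and 76.3 in KO after DSS. The 4 groups did not overlap, and Acat2 was higher in KO by about the same amount without DSS (log2 fold change 0.70 ± 0.053, adjusted p = 1.08e-06) and with DSS (0.63 ± 0.049). Its interaction was -0.070 ± 0.073 (adjusted p = 0.54), so no difference between the 2 gaps was detected. The rise of Acat2 with DSS was 0.50 ± 0.054 in WT and 0.43 ± 0.049 in KO. Acat3, a near copy, had 5 to 15 counts in a library, against 629 to 1333 for Acat2. Hmgcs1, HMG-CoA synthase (ENSMUSG00000093930.2, chromosome 13, 119690379 to 119708260), stood at 273 and 268 CPM in the untreated WT libraries, 435 and 436 in those of untreated KO, 466 and 478 in WT after DSS, and 470.1 and 472 in KO after DSS. It was higher in untreated KO (0.69 ± 0.039, adjusted p = 6.45e-08), while under DSS the genotypes overlapped (-0.0021 ± 0.038, adjusted p = 0.972). Its interaction was -0.69 ± 0.054 (adjusted p = 9.49e-07), the most negative of the members. The rise of Hmgcs1 with DSS was 0.80 ± 0.039 in WT and 0.11 ± 0.038 in KO, where the call was lost without either untreated KO library or DSS-treated WT replicate 1 (0.11 each, adjusted p from 0.0507 to 0.146).

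The mevalonate kinase gene Mvk stood at 24.7 and 26.2 CPM in the untreated WT libraries, 32.9 and 32.6 in those of untreated KO, 31.5 and 32.8 in WT after DSS, and 35.2 and 41.9 in KO after DSS. It was higher in KO without DSS (0.36 ± 0.082, adjusted p = 0.00779) and with DSS (0.26 ± 0.077, adjusted p = 0.0148), and both calls were lost without some of the libraries. The untreated call was lost without untreated WT replicate 1 or either untreated KO library (0.32 to 0.37, adjusted p 0.0656 to 0.093), and the DSS call without DSS-treated WT replicate 1 (0.23) and likewise without DSS-treated KO replicate 2 (0.13). The DSS rise in WT (0.34 ± 0.081) was lost without untreated WT replicate 1 (0.29, adjusted p = 0.0596). That in KO (0.24 ± 0.078) was lost without either untreated KO library or DSS-treated KO replicate 2 (0.10 to 0.24, adjusted p up to 0.291). Pmvk, the next kinase, stood at 22.8 and 23.9 CPM in the untreated WT libraries, 32.5 and 31.2 in those of untreated KO, 27.7 and 28.5 in WT after DSS, and 37.1 and 40.5 in KO after DSS. Its KO libraries lay above the WT libraries of the same treatment, by 0.45 ± 0.070 (adjusted p = 0.000543) without DSS and 0.46 ± 0.066 (adjusted p = 6.59e-05) with DSS. The rise of Pmvk with DSS was 0.27 ± 0.070 in WT and 0.28 ± 0.065 in KO, and the call in WT was lost without untreated WT replicate 1 and likewise without DSS-treated WT replicate 2 (0.23 and 0.25). Mvd, the decarboxylase that ends the mevalonate steps, stood at 41.2 and 38.3 CPM in the untreated WT libraries, 48.4 and 53.1 in those of untreated KO, 66.1 and 71.2 in WT after DSS, and 68.5 and 73.0 in KO after DSS. It was higher in untreated KO (0.35 ± 0.068, adjusted p = 0.00273), a call lost without untreated KO replicate 2 (0.28, adjusted p = 0.0704). Under DSS its genotypes overlapped. DSS raised Mvd by 0.79 ± 0.065 in WT and 0.48 ± 0.064 in KO, and the interaction (-0.31 ± 0.091, adjusted p = 0.027) was lost without untreated WT replicate 2, untreated KO replicate 2 or DSS-treated WT replicate 2 (-0.26 to -0.24).

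The isoprenoid steps link the mevalonate products and end in squalene. Idi1, the isomerase of isopentenyl diphosphate (ENSMUSG00000058258.14, chromosome 13, 8885501 to 8892451), stood at 108 and 105 CPM in the untreated WT libraries, 173 and 169 in those of untreated KO, 169.8 and 173 in WT after DSS, and 202 and 211 in KO after DSS. Untreated KO and DSS-treated WT overlapped, and the DSS-treated KO libraries were the highest. Idi1 was higher in KO by 0.68 ± 0.045 (adjusted p = 2.36e-07) without DSS and by 0.27 ± 0.043 (adjusted p = 0.000207) with DSS, and the difference between these passed the test (interaction -0.42 ± 0.062, adjusted p = 0.000356). The rise of Idi1 with DSS was 0.69 ± 0.045 in WT and 0.27 ± 0.043 in KO. Fdps, farnesyl diphosphate synthase (ENSMUSG00000059743.12, chromosome 3, 89093588 to 89101959), stood at 75.3 and 72.7 CPM in the untreated WT libraries, 119 and 122 in those of untreated KO, 130.0 and 121 in WT after DSS, and 156 and 167 in KO after DSS. DSS-treated KO again held the highest libraries. The gap between genotypes was 0.70 ± 0.053 without DSS and 0.36 ± 0.050 with DSS (interaction -0.34 ± 0.073, adjusted p = 0.00523). The rise of Fdps with DSS was 0.76 ± 0.053 in WT and 0.43 ± 0.050 in KO.

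Fdft1, squalene synthase, stood at 116 and 113 CPM in the untreated WT libraries, 156 and 151 in those of untreated KO, 178 and 175 in WT after DSS, and 179 and 187 in KO after DSS. It was higher in untreated KO (0.42 ± 0.046, adjusted p = 2.4e-05), and under DSS the difference did not pass (0.049 ± 0.044, adjusted p = 0.4). DSS raised Fdft1 by 0.63 ± 0.045 in WT and 0.25 ± 0.044 in KO, with an interaction of -0.38 ± 0.063 (adjusted p = 0.000897). Of its exon bases 18.3% lie opposite exons of Ctsb, which had between 5911 and 8921 counts per library, and the strand setting of the counting is not given in the sources used here, so reads of the 2 genes cannot be told apart there. Sqle, the epoxidase that makes squalene ready for ring closure (ENSMUSG00000022351.14, chromosome 15, 59315077 to 59331192), stood at 116 and 118 CPM in the untreated WT libraries, 181 and 177 in those of untreated KO, 173 and 165 in WT after DSS, and 184 and 192 in KO after DSS. All KO and DSS-treated libraries lay well above untreated WT. Sqle was higher in untreated KO (0.61 ± 0.045, adjusted p = 8.51e-07). DSS raised Sqle by 0.53 ± 0.045 (adjusted p = 6.83e-07) in WT, and in KO it did not pass (0.073 ± 0.044, adjusted p = 0.207). The interaction was -0.45 ± 0.063 (adjusted p = 0.000186). The small excess of Sqle in DSS-treated KO (0.15 ± 0.044, adjusted p = 0.012) was lost without DSS-treated WT replicate 2 (0.12, adjusted p = 0.132).

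Ring closure and the later steps turn lanosterol into cholesterol. Lss, lanosterol synthase, stood at 55.3 and 58.2 CPM in the untreated WT libraries, 84.8 and 85.3 in those of untreated KO, 83.9 and 85.0 in WT after DSS, and 86.0 and 87.6 in KO after DSS. The KO libraries and the DSS-treated libraries all lay between 83.9 and 87.6 CPM, and only untreated WT stood apart. Lss was higher in untreated KO (0.59 ± 0.049, adjusted p = 2.61e-06) and in DSS-treated WT against untreated WT (0.58 ± 0.049), with an interaction of -0.55 ± 0.068 (adjusted p = 7.17e-05). Its effective length differed up to 1.33 times between libraries, and with lengths as offsets the DSS rise in WT was 0.32 (adjusted p = 0.0758) and the interaction -0.44 (adjusted p = 0.116). Cyp51, the lanosterol demethylase (ENSMUSG00000001467.5, chromosome 5, 4081145 to 4104746), stood at 99.7 and 101 CPM in the untreated WT libraries, 162 and 162 in those of untreated KO, 203 and 198 in WT after DSS, and 213 and 211 in KO after DSS. DSS raised it in WT by 1.00 ± 0.042 (adjusted p = 5.43e-10), the largest rise of an enzyme in any of the comparisons, and in KO by 0.39 ± 0.041 (adjusted p = 2.98e-06). Untreated KO lay between untreated WT and DSS-treated WT (0.69 ± 0.043, adjusted p = 1.64e-07 against untreated WT). The interaction for Cyp51 was -0.61 ± 0.059 (adjusted p = 7.55e-06). Cyp51 shares 3.76% of its exon bases with Akap9 on the other strand.

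The reductase gene Tm7sf2 stood at 18.9 and 18.8 CPM in the untreated WT libraries, 21.6 and 22.3 in those of untreated KO, 25.538 and 25.4 in WT after DSS, and 26.4 and 28.2 in KO after DSS. It was higher with DSS in WT (0.43 ± 0.071, adjusted p = 0.000294) and KO (0.31 ± 0.070, adjusted p = 0.00236), and neither genotype comparison passed. Of its exon bases 12.08% are shared on the same strand with Vps51, which had 744 to 1020 counts per library against at least 336 for Tm7sf2. Msmo1, which starts the removal of the methyl groups at carbon C4 after Cyp51 has acted, stood at 133 and 123 CPM in the untreated WT libraries, 178 and 172 in those of untreated KO, 195 and 202 in WT after DSS, and 239 and 249.5 in KO after DSS. Its genotypes differed without DSS (0.45 ± 0.050, adjusted p = 3.25e-05) and with DSS (0.30 ± 0.048, adjusted p = 0.000176), and the difference between the gaps did not pass. DSS raised Msmo1 by 0.63 ± 0.049 in WT and 0.48 ± 0.048 in KO. Its partner in demethylation Nsdhl stood at 37.9 and 35.2 CPM in the untreated WT libraries, 53.1 and 49.9 in those of untreated KO, 55.5 and 56.1 in WT after DSS, and 58.4 and 64.0 in KO after DSS. Nsdhl was higher in untreated KO (0.49 ± 0.064, adjusted p = 0.000134) and rose with DSS by 0.61 ± 0.063 in WT and 0.25 ± 0.061 in KO, the last lost without untreated KO replicate 2 (0.21, adjusted p = 0.0675). Its interaction (-0.36 ± 0.088, adjusted p = 0.0106) was lost without untreated WT replicate 2 and likewise without untreated KO replicate 1 (-0.31 each). Hsd17b7, the ketoreductase of the same complex, stood at 25.6 and 28.7 CPM in the untreated WT libraries, 41.2 and 42.8 in those of untreated KO, 37.3 and 36.0 in WT after DSS, and 43.6 and 37.8 in KO after DSS. It was higher in untreated KO (0.63 ± 0.077, adjusted p = 7.37e-05) and with DSS in WT (0.43 ± 0.079), and its interaction (-0.48 ± 0.11, adjusted p = 0.0063) was lost without untreated WT replicate 1 (-0.39, adjusted p = 0.0503).

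Ebp, the sterol isomerase, went against the other enzymes in untreated KO when levels were not corrected for effective length. It stood at 78.3 and 82.6 CPM in the untreated WT libraries, 70.9 and 68.7 in those of untreated KO, 87.7 and 84.4 in WT after DSS, and 91.2 and 103 in KO after DSS. The untreated KO libraries were the lowest and the DSS-treated KO libraries the highest of all. Ebp was lower in untreated KO (-0.20 ± 0.060, adjusted p = 0.0349) and higher in DSS-treated KO (0.17 ± 0.058, adjusted p = 0.0296). The first call was lost without any of the 4 untreated or 2 DSS-treated WT libraries (-0.24 to -0.17, adjusted p 0.0531 to 0.223), and with DESeq2. The second was lost without either untreated KO or DSS-treated WT library or DSS-treated KO replicate 2 (0.086 to 0.20, adjusted p 0.0527 to 0.24). Its rise with DSS in KO (0.47 ± 0.060, adjusted p = 1.78e-05) and its interaction (0.38 ± 0.084, adjusted p = 0.00599) held without each library in turn. With effective lengths as offsets, however, the call of Ebp as lower in untreated KO and its interaction were both lost. Sc5d, the desaturase that follows, stood at 76.2 and 70.7 CPM in the untreated WT libraries, 87.6 and 85.8 in those of untreated KO, 101 and 102 in WT after DSS, and 107 and 107 in KO after DSS. Sc5d rose with DSS in WT (0.46 ± 0.049) and KO (0.30 ± 0.049) and was higher in untreated KO (0.24 ± 0.050, adjusted p = 0.00513), a call lost without untreated WT replicate 2 and likewise without untreated KO replicate 1 (0.18 and 0.22). Dhcr7, which makes cholesterol in the last step, stood at 109 and 112 CPM in the untreated WT libraries, 119 and 121 in those of untreated KO, 132 and 133 in WT after DSS, and 118 and 119 in KO after DSS. DSS-treated WT held the highest libraries and untreated WT the lowest. Dhcr7 rose with DSS in WT (0.26 ± 0.043, adjusted p = 0.000294) and was lower in DSS-treated KO than in DSS-treated WT (-0.16 ± 0.043, adjusted p = 0.00927), a call lost without either DSS-treated WT library (-0.16 and -0.15, adjusted p 0.058 and 0.0508). Its interaction was -0.28 ± 0.060 (adjusted p = 0.00518).

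**Figure D3:**
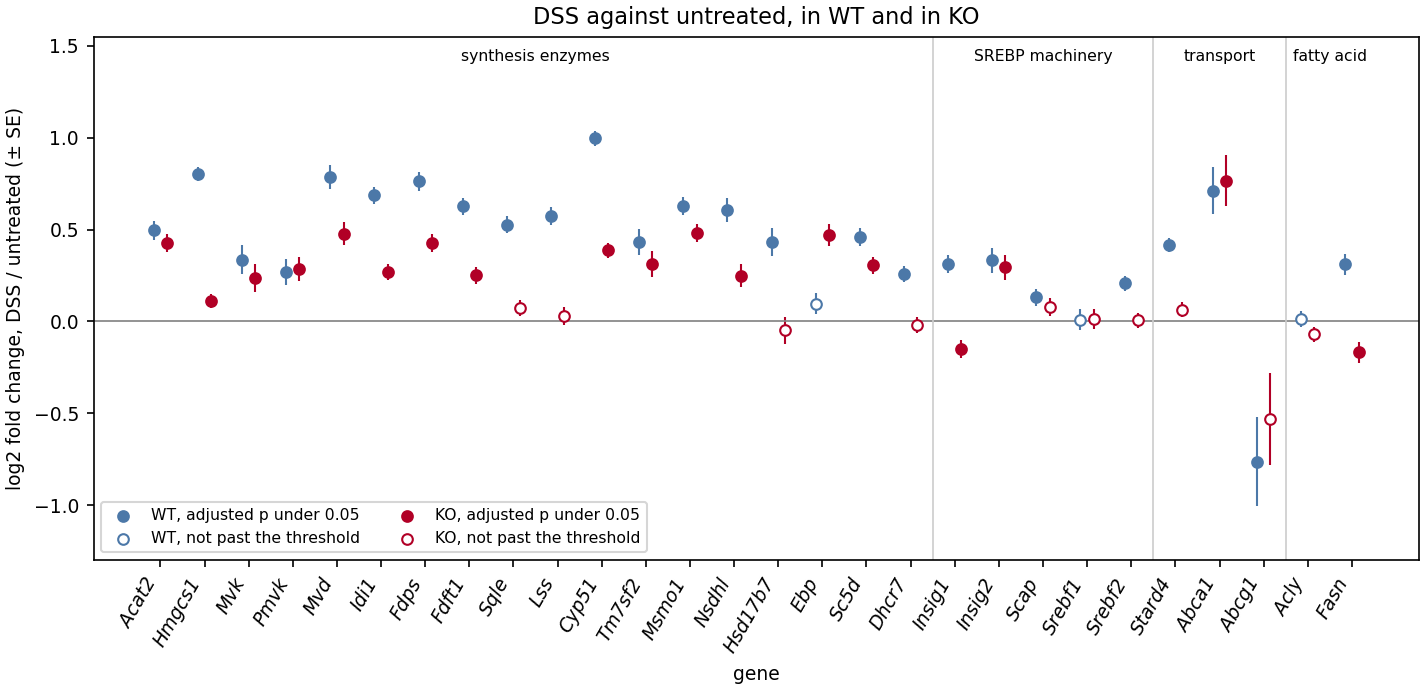
Log2 fold change of DSS over untreated (y axis, ± SE) for the 28 tested members (x axis, grouped by role), WT in blue and KO in red; filled points passed an adjusted p of 0.05. Most enzymes rose more in WT than in KO, and Cyp51 in WT reached 1.00 ± 0.042. Insig1 and Fasn rose in WT and fell in KO, and both falls were lost without some of the libraries. The values are not corrected for effective length.

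The 5 genes that regulate the pathway had a median log2 fold change of 0.17 in untreated KO and 0.21 with DSS in WT, beside 0.47 and 0.55 for the enzymes. Insig1, itself a target of SREBP that feeds back on it (ENSMUSG00000045294.11, chromosome 5, 28071363 to 28078662), stood at 115 and 112 CPM in the untreated WT libraries, 136 and 141 in those of untreated KO, 136 and 146 in WT after DSS, and 126 and 124 in KO after DSS. Untreated KO and DSS-treated WT were the higher groups and overlapped. Insig1 was higher in untreated KO (0.28 ± 0.048, adjusted p = 0.00108) and lower in DSS-treated KO than in DSS-treated WT (-0.18 ± 0.048, adjusted p = 0.00796), the latter lost without DSS-treated WT replicate 2 (-0.13, adjusted p = 0.112). With DSS it rose in WT (0.31 ± 0.048, adjusted p = 0.000156) and fell in KO (-0.15 ± 0.048, adjusted p = 0.0223), and the fall was lost without either untreated KO library (-0.18 and -0.12). Its interaction was -0.46 ± 0.068 (adjusted p = 0.000284). Insig2, its relative, stood at 35.6 and 31.4 CPM in the untreated WT libraries, 38.3 and 35.3 in those of untreated KO, 41.0 and 43.5 in WT after DSS, and 45.6 and 44.5 in KO after DSS. Insig2 rose with DSS in WT (0.33 ± 0.069, adjusted p = 0.00189) and also in KO (0.29 ± 0.069, adjusted p = 0.00325), the latter lost without untreated KO replicate 2 (0.24, adjusted p = 0.0609). Its genotypes did not differ past the threshold, at 0.13 ± 0.071 without DSS and 0.093 ± 0.067 with DSS. With effective lengths as offsets they did, at 0.31 (adjusted p = 0.0398) and 0.39 (adjusted p = 0.00354). The effective length of Insig2 differed up to 1.28 times between libraries.

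Scap stood at 80.5 and 82.3 CPM in the untreated WT libraries, 81.3 and 81.3 in those of untreated KO, 90.5 and 87.7 in WT after DSS, and 87.9 and 84.0 in KO after DSS. Its untreated genotypes overlapped (-0.0011 ± 0.048) and so did the DSS-treated ones (-0.052 ± 0.047). The DSS difference was 0.13 ± 0.047 (adjusted p = 0.0424) in WT, lost without any of the 4 untreated or 2 DSS-treated WT libraries (0.10 to 0.15, adjusted p 0.077 to 0.244), and 0.080 ± 0.048 in KO (adjusted p = 0.204). Srebf2, whose product acts chiefly on the cholesterol enzymes, stood at 233 and 243 CPM in the untreated WT libraries, 277 and 278 in those of untreated KO, 276 and 274 in WT after DSS, and 279.6 and 278 in KO after DSS. Untreated WT alone stood apart, with the other 3 groups between 274 and 279.6 CPM. Srebf2 was higher in untreated KO (0.22 ± 0.041, adjusted p = 0.00183) and rose with DSS in WT (0.21 ± 0.040, adjusted p = 0.0011), whereas KO gave 0.0053 ± 0.040 with DSS and the genotypes under DSS 0.020 ± 0.040. The interaction (-0.20 ± 0.057, adjusted p = 0.0214) was lost without untreated WT replicate 1, either untreated KO library or either DSS-treated WT library (-0.21 to -0.17). Srebf1, which acts chiefly on fatty acid genes, stood at 99.9 and 104 CPM in the untreated WT libraries, 115 and 113 in those of untreated KO, 105 and 99.975 in WT after DSS, and 109 and 122 in KO after DSS. KO libraries lay above WT libraries of the same treatment, with 0.17 ± 0.055 (adjusted p = 0.0564) untreated and 0.17 ± 0.055 (adjusted p = 0.0233) with DSS. The first passed without either DSS-treated KO library (0.17, adjusted p 0.00673 and 0.00689), and the second was lost without replicate 2 of either DSS-treated group (0.13 without that of WT and 0.092 without that of KO). With DSS, Srebf1 gave 0.011 ± 0.055 in WT and 0.016 ± 0.055 in KO. The effective length of Srebf1 differed up to 1.22 times between libraries and was shorter in KO. Untreated KO had 2446 and 2521 bases, less than untreated WT (2772 and 2685). DSS-treated KO had 2460 and 2280, less than DSS-treated WT (2587 and 2657). The Srebf1 folds given here are not corrected for this difference. In TPM, which is corrected for length, Srebf1 stood at 46.8 ± 3.22 in untreated WT and 59.4 ± 1.89 in untreated KO. After DSS it stood at 53.1 ± 3.16 TPM in WT and 68.8 ± 7.91 in KO.

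**Figure D4:**
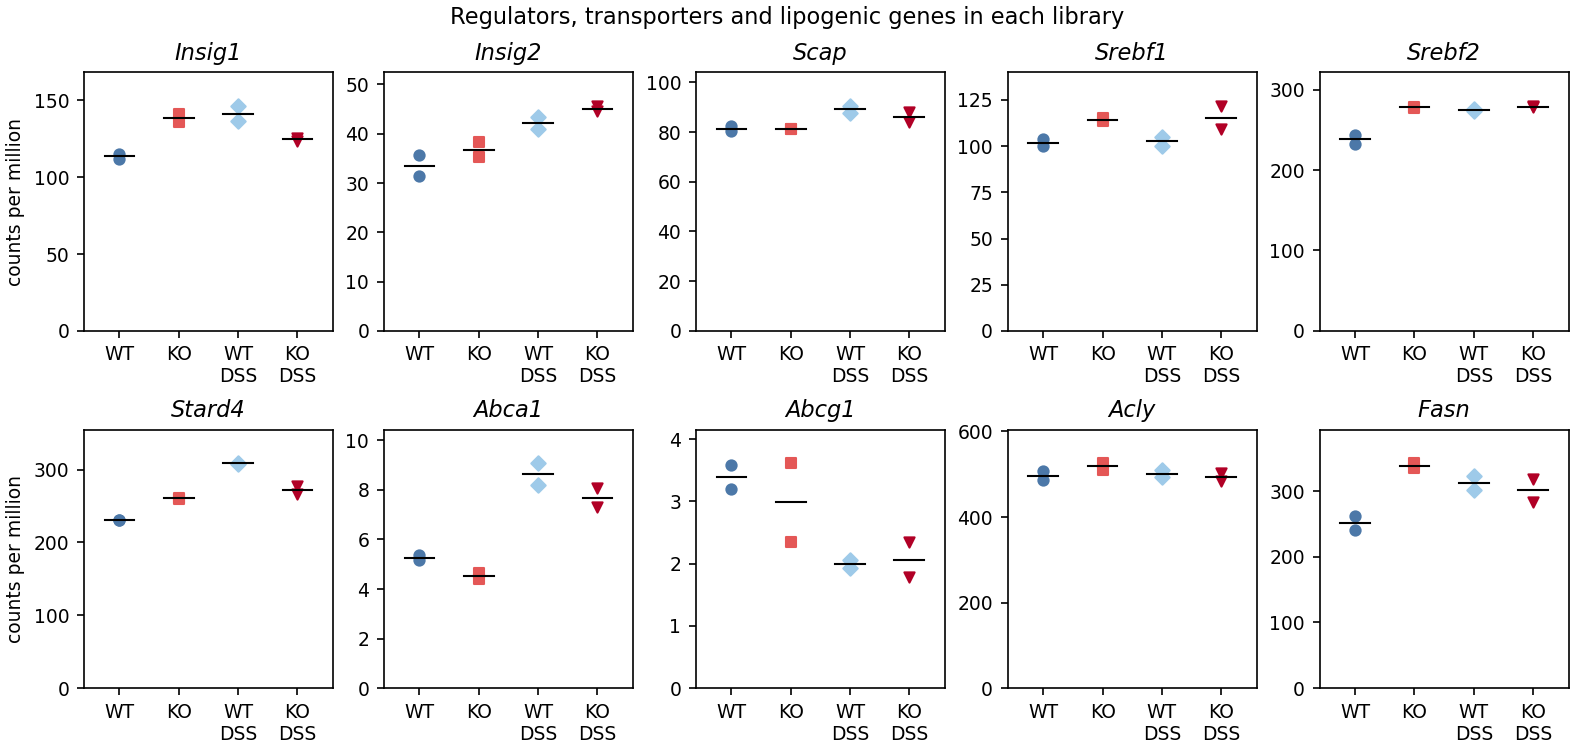
CPM (y axis, from 0) of 10 members outside the enzyme list in each library (points) with the group mean (line), for untreated WT and KO and the same genotypes with DSS (x axis). Insig1 and Stard4 are lower in DSS-treated KO than in DSS-treated WT, and the Srebf2 level of untreated WT lies below the other groups.

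Of the transport genes Stard4, a cytosolic sterol carrier, stood at 231 and 231 CPM in the untreated WT libraries, 259 and 261 in those of untreated KO, 309 and 308 in WT after DSS, and 277 and 267 in KO after DSS. DSS-treated WT held the highest libraries. Stard4 rose with DSS in WT (0.42 ± 0.040, adjusted p = 2.25e-06) and gave 0.063 ± 0.040 in KO, with an interaction of -0.35 ± 0.057 (adjusted p = 0.000602). It was higher in untreated KO (0.17 ± 0.040, adjusted p = 0.0102), a call lost without any of the 4 untreated libraries (0.16 to 0.18, adjusted p 0.0752 to 0.12), and lower in DSS-treated KO (-0.18 ± 0.040, adjusted p = 0.00234). Abca1, which hands cholesterol to apolipoproteins, stood at 5.16 and 5.38 CPM in the untreated WT libraries, 4.38 and 4.65 in those of untreated KO, 9.07 and 8.18 in WT after DSS, and 8.05 and 7.33 in KO after DSS. The DSS-treated libraries lay above all untreated ones, by 0.71 ± 0.13 (adjusted p = 0.000633) in WT and 0.77 ± 0.14 (adjusted p = 0.000441) in KO. The genotypes gave -0.22 ± 0.15 untreated and -0.17 ± 0.12 with DSS, and neither passed. The effective length of Abca1 differed up to 1.59 times between libraries, and with lengths as offsets the rise in WT was 0.27 (adjusted p = 0.326). Abcg1 stood at 3.20 and 3.59 CPM in the untreated WT libraries, 2.35 and 3.61 in those of untreated KO, 1.92 and 2.06 in WT after DSS, and 1.78 and 2.35 in KO after DSS. Its counts per library were between 31 and 64. Abcg1 was lower with DSS in WT (-0.76 ± 0.24, adjusted p = 0.0234), which was lost without any of the 4 WT libraries (-0.85 to -0.68, adjusted p 0.0556 to 0.116). KO gave -0.53 ± 0.25, which passed without untreated KO replicate 1 (-0.81, adjusted p = 0.0313). The genotypes gave -0.18 ± 0.23 untreated and 0.052 ± 0.27 with DSS for Abcg1. No interaction was called for Abca1 (0.053 ± 0.19), Abcg1 (0.23 ± 0.35), Insig2 (-0.038 ± 0.10), Scap (-0.051 ± 0.067) or Srebf1 (0.0051 ± 0.078).

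Acly, which makes cytosolic acetyl-CoA from citrate, stood at 486 and 507 CPM in the untreated WT libraries, 526 and 511 in those of untreated KO, 511 and 493 in WT after DSS, and 503 and 484 in KO after DSS, and passed in none of the 5 comparisons. Fasn, fatty acid synthase (ENSMUSG00000025153.9, chromosome 11, 120805846 to 120824547), stood at 241 and 263 CPM in the untreated WT libraries, 335 and 342 in those of untreated KO, 322 and 302 in WT after DSS, and 319 and 284 in KO after DSS. Untreated WT held the lowest libraries. Fasn was higher in untreated KO (0.43 ± 0.058, adjusted p = 0.000175), rose with DSS in WT (0.31 ± 0.058, adjusted p = 0.000833) and fell with DSS in KO (-0.17 ± 0.058, adjusted p = 0.0303). The fall was lost without either untreated KO library or DSS-treated KO replicate 2 (-0.18 to -0.087). The effective length of Fasn differed up to 1.38 times, and with lengths as offsets the DSS values were 0.061 in WT and -0.032 in KO and the interaction was -0.094 (adjusted p = 0.481) in place of -0.48 ± 0.082.

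Other genes of sterol and fatty acid metabolism were taken from 4 further lists. Their counts stand beside the shares of all genes called higher and lower, 9.19% and 6.22% in untreated KO, 21.3% and 17.7% for KO under DSS, 18.9% and 18.3% for DSS in WT, 21.7% and 19.8% for DSS in KO, and 10.8% and 10.6% for the interaction. Of 16 tested genes of fatty acid synthesis and desaturation, 6 were higher and 2 lower in untreated KO (median 0.17), 10 higher and 2 lower with DSS in WT (median 0.52), and 9 higher and 4 lower with DSS in KO (median 0.22). Under DSS 2 were higher and 7 lower in KO, and the interaction passed as positive for 1 and negative for 6. The 2 of 16 lay below the share of all genes called higher there. The elongase Elovl6 stood at 57.3 and 58.5 CPM in the untreated WT libraries, 78.3 and 77.2 in those of untreated KO, 120.4 and 122 in WT after DSS, and 90.7 and 84.6 in KO after DSS. Elovl6 rose with DSS in WT by 1.06 ± 0.049 (adjusted p = 1.26e-09) and was then lower in DSS-treated KO (-0.47 ± 0.048, adjusted p = 3.01e-06), with an interaction of -0.89 ± 0.070 (adjusted p = 9.51e-07). Scd2, a desaturase, rose with DSS in both WT (0.62 ± 0.038) and KO (0.65 ± 0.037). Aacs, which turns acetoacetate into acetoacetyl-CoA, was higher in untreated KO (0.47 ± 0.050, adjusted p = 2.05e-05).

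Isoprenoid branch genes, which take farnesyl units to other products, had 1 higher and 1 lower of 14 in untreated KO (median -0.0036), 4 higher and 2 lower with DSS in WT, and 1 higher and 1 lower with DSS in KO. The counts in untreated KO were near those shares of all genes. Under DSS 2 were higher in KO and 0 lower (1 lower at an unadjusted p under 0.05, and 0 with DESeq2). Their interaction had 0 calls in edgeR and DESeq2, with 3 at an unadjusted p under 0.05. Nus1, of dolichol synthesis, was higher in untreated KO (0.20 ± 0.046, adjusted p = 0.00968) and in DSS-treated KO (0.31 ± 0.045, adjusted p = 9.16e-05). Of 14 genes of SREBP processing and sterol-regulated protein degradation, 3 were higher in untreated KO, 4 in DSS-treated KO against DSS-treated WT, and 3 with DSS in WT, with 0 lower in each (0 also at an unadjusted p under 0.05 and with DESeq2). With DSS in KO 6 were higher and 1 lower, and the interaction passed as positive for 1 and as negative for 0 (1 negative at an unadjusted p under 0.05, 0 with DESeq2). The 4 of 14 for KO under DSS and the 3 of 14 for DSS in WT were near the shares of all genes called higher. The sterol-binding Tmem97 was higher in untreated KO (0.30 ± 0.061, adjusted p = 0.00388) and with DSS in WT (0.45 ± 0.060, adjusted p = 4.89e-05).

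In the list of LXR-linked, storage and lysosomal genes the direction was mixed or lower. Untreated KO had 0 of 19 higher (2 at an unadjusted p under 0.05, 0 with DESeq2) and 3 lower (median -0.15), namely the oxysterol-making enzyme Cyp27a1 (-0.74 ± 0.066, adjusted p = 4.5e-06), the LXR target Mylip (-0.56 ± 0.078, adjusted p = 0.000231) and the lysosomal sterol carrier Npc2 (-0.23 ± 0.042, adjusted p = 0.00198). With DSS 4 were higher and 8 lower in WT, and likewise 4 and 8 in KO, the 4 being near the share of all genes called higher. The LXR gene Nr1h3 was lower with DSS in WT (-0.75 ± 0.089, adjusted p = 1.86e-05) and also in KO (-1.04 ± 0.10, adjusted p = 9.47e-07). The interaction passed as positive for 5 and negative for 3. Under DSS 3 were higher and 6 lower in KO, and the sterol exporter gene Abcg5 had the smallest p-value. Abcg5 stood at 8.46 and 7.73 CPM in the untreated WT libraries, 6.86 and 6.67 in those of untreated KO, 4.45 and 4.95 in WT after DSS, and 11.8 and 11.1 in KO after DSS. The DSS-treated KO libraries were the highest and the DSS-treated WT libraries the lowest (KO against WT under DSS 1.28 ± 0.12, adjusted p = 1.56e-06), and its interaction was 1.54 ± 0.17 (adjusted p = 2.81e-05).

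Markers of other cell states moved with some of these comparisons. The summed level of 10 proliferation markers was 463 to 468 CPM in untreated WT, 683 to 687 in untreated KO, 437 to 448 in DSS-treated WT and 935 to 986 in DSS-treated KO. All 10 were higher in untreated KO and in DSS-treated KO against WT of the same treatment, and their part in the sterol results of those comparisons was not tested. With DSS in WT, where 17 of 18 enzymes rose, 3 proliferation markers were higher and 4 lower. With DSS in KO, where 14 enzymes rose, 7 were higher and 1 lower (median 0.70). Mature colonocyte markers (9) summed to 11341 to 11350 CPM in untreated WT, 11700 to 11756 in untreated KO, 9157 to 9312 in DSS-treated WT and 7352 to 7691 in DSS-treated KO. Goblet cell markers (7) summed to 16754 to 17067, 16311 to 16327, 9362 to 9659 and 7560 to 7580 CPM in the same order. Within both lists single genes went opposite ways in untreated KO. There 4 colonocyte markers were higher (Krt20 most, 0.67) and 4 lower (Aqp8 most, -0.54). Of the goblet markers 2 were higher and 3 lower. The shares of all genes were 9.19% higher and 6.22% lower. Macrophage markers (8 symbols, found as 9 listed genes) summed to 6.18 to 8.97 CPM without DSS, 25.1 to 25.6 in DSS-treated WT and 52.6 to 55.9 in DSS-treated KO. Neutrophil markers (8) summed to 86.0 to 99.3 CPM without DSS, 52.5 to 56.6 in DSS-treated WT and 302 to 326 in DSS-treated KO, with 3 of them at 0 in untreated WT and 4 in untreated KO. One gene, Ly6g, carried most of that sum without DSS and fell in DSS-treated WT, where 7 of the 8 neutrophil markers rose. Of 4 tested fibroblast markers 2 were higher in untreated KO and 4 in DSS-treated KO against DSS-treated WT (median 1.5), with a list sum between 5.05 and 11.3 CPM in the 8 libraries. Both tested endothelial markers were lower in untreated KO, in a list that summed to between 5.67 and 11.9 CPM. Of 5 tested crypt stem markers 2 were lower in untreated KO and 3 in DSS-treated KO against DSS-treated WT, with sums of 157 to 161 CPM in untreated WT, 144 to 146 in untreated KO, 132 to 136 in DSS-treated WT and 121 to 122 in DSS-treated KO. The part of these cell types in the sterol results was not tested.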

How the data were processed

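Expected counts, TPM and effective lengths per gene were deposited by the authors, 1 table per library. Per the submitters' processing notes, the tools were RSEM 1.3.0, STAR 2.5.3a and DESeq2 1.18.1, on the mm10 build, and the strand setting is not given in the sources used here. The authors' deposited TPM values served to compare levels between genes and, for Srebf1 alone, between groups.

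The members and the other gene lists were chosen with earlier results of these data known. Expected counts were rounded, filtered with filterByExpr (14991 genes kept) and tested with edgeR 4.0.16 (R 4.3.3), with TMM scaling, a quasi-likelihood fit over all 8 libraries and Benjamini-Hochberg adjustment over all genes tested, at a threshold of 0.05. SE is the log2 fold change over the square root of the F statistic. The script was tested on simulated data. All called members, and in every comparison the tested regulator and transport genes (Npc1l1 was not tested), are named with fold changes, with up to 3 genes of each other pathway list by smallest p. The alternatives were DESeq2 1.42.0, RLE and upper-quartile scaling, effective-length offsets, no filter, a replicate block, fewer groups, and each library left out. Effective lengths were deposited in bases by the authors. Other genes of the pathway were not analysed here.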

Additional observations from a re-analysis of the deposited data

Results flagged for a closer look

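The response to DSS differed between KO and WT, by the edgeR interaction test, for 16 members. The value is the log2 DSS change in KO minus that in WT. Among the enzymes up to squalene it was negative for Hmgcs1 (-0.69), Mvd (-0.31), Idi1 (-0.42), Fdps (-0.34), Fdft1 (-0.38) and Sqle (-0.45). Among the later enzymes it was negative for Lss (-0.55), Cyp51 (-0.61), Nsdhl (-0.36), Hsd17b7 (-0.48) and Dhcr7 (-0.28), and positive for Ebp (0.38). Outside the enzymes it was negative for Insig1 (-0.46), Srebf2 (-0.20), Stard4 (-0.35) and Fasn (-0.48). With effective lengths as offsets the values for Mvd, Lss, Nsdhl, Ebp, Srebf2 and Fasn no longer passed, and the other 10 did. Summed proliferation markers were higher in DSS-treated KO than in any other group, and their part in these differences was not tested.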

How the results depend on the processing

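With 2 libraries a group the fit had 4 residual degrees of freedom for each gene. The quasi-likelihood tests also drew on the spread over all genes, so their p-values rest on more than these 4. Some calls of small folds were lost when 1 library was left out. In part the value changed little, as for Stard4 in untreated KO (0.16 to 0.18). Leaving out each library in turn gave 16 to 23 higher and 0 to 1 lower members for untreated KO, 6 to 10 and 1 to 4 for KO under DSS, 21 to 25 and 0 to 1 for DSS in WT, 12 to 16 and 0 to 3 for DSS in KO, and 1 positive and 13 to 16 negative for the interaction. DESeq2 and effective-length offsets each gave 0 lower members for untreated KO, 0 for DSS in WT and 1 for DSS in KO, where fitting only the groups compared also gave 1. Offsets left 0 positive interactions. The cause was not tested. The fit of only the groups compared was not run for the interaction, which needs all groups.

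Over all genes DESeq2 called 748 higher and 498 lower in untreated KO (1378 and 932 in edgeR), 2153 and 1648 for KO under DSS (3198 and 2657), 1808 and 1601 for DSS in WT (2834 and 2739), 2324 and 1990 for DSS in KO (3259 and 2972), and 856 and 828 for the interaction (1613 and 1595). Offsets gave 786 and 504 in untreated KO and 882 and 912 for the interaction. With 1 library left out, between 625 and 1833 genes were higher and between 328 and 1341 lower in untreated KO, and between 945 and 2276 interactions were positive and between 943 and 2168 negative.

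Signs turned only for values that were not called. With offsets these were Scap in untreated KO (0.030) and the Insig2 interaction (0.080). With upper-quartile scaling they were Srebf2 (-0.011) for KO under DSS, Srebf1 (-0.010) and Srebf2 (-0.021) for DSS in KO, and the Srebf1 interaction (-0.013). Without the filter it was Srebf1 for DSS in WT (-0.0095). With 1 library left out at a time, the values ranged over both signs for Scap (-0.019 to 0.012) and Abcg1 (-0.53 to 0.090) in untreated KO, Abcg1 for KO under DSS (-0.16 to 0.24), and Srebf1 for DSS in WT (-0.029 to 0.046) and in KO (-0.065 to 0.093). The interactions that did so were Insig2 (-0.13 to 0.048), Srebf1 (-0.074 to 0.084), Abca1 (-0.020 to 0.13) and Abcg1 (-0.040 to 0.58).

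The replicate numbers are not stated to pair the samples. Correlations of same-numbered deviations lay between -0.112 and 0.077, so no shared deviation was seen. With 2 libraries a group this cannot exclude a pairing. A replicate block gave 19 higher and 1 lower members in untreated KO, 9 and 3 for KO under DSS, 23 and 1 for DSS in WT, 16 and 2 for DSS in KO, and 1 positive and 15 negative interactions.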
